A study of Mus musculus with 6 samples.

Results

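The genes described here lie on mouse chromosome 2 on either side of Wt1, a zinc finger transcription factor, and were measured in the oviduct. A list of 45 gene symbols was matched to the array annotation, and every probe set that named only 1 of them was taken. That gave 103 of 45037 probe sets, for 43 of the 45 genes. Tcp11l1 and Cd59b were matched to no probe set, and 1 probe set that names Slc1a2 together with another gene was left out. The RefSeq gene table places all 45 genes on chromosome 2, 31 before and 14 after Wt1, and of the measured genes 29 lie before and 14 after it.

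Oviducts came from MF1 females, an outbred stock, that had been mated with wild-type males and were sampled at embryonic day 2.5. There were 3 samples of genotype Wt1 +/+ and 3 of genotype Wt1 ko/+, with 1 array each, so by their label the heterozygous females carry 1 knockout allele in every cell. The labels do not say how the allele was built or whether a sample is a single animal or a pool, and p-values therefore reflect only how far these samples differ among themselves, in part perhaps technically. In whole oviducts, fewer cells of a type and less RNA per cell cannot be told apart.

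The comparison asks whether genes beside the knockout allele differ between the genotypes. As background, a targeted allele is made in embryonic stem cells and then bred on, and chromosomal DNA next to it tends to be inherited together with it, so that neighbouring genes of heterozygotes can carry sequence from the stem cell strain. Breeding removes such DNA from the outside inward, and the nearest neighbours keep it longest. The arrangement of this region is also known from human disease, where deletions that remove PAX6 and WT1 together cause a syndrome of Wilms tumour, aniridia, and genitourinary and developmental defects.

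Each probe set gave a scaled fluorescence intensity per array, which was put on the log2 scale and quantile normalized. A change is the heterozygous mean minus the wild-type mean of these log2 values, given with its standard error (SE) from limma, a linear model with a spread pooled across probe sets. A probe set is called bright where its mean over the 6 arrays exceeds 7.31, the middle value among all probe sets, and dim otherwise. Intensities are as deposited and stand in the order of replicates 1, 2 and 3, and overlap between genotypes is judged after normalization. No detection calls were used, so a dim probe set may lie at background. The oviduct label was borne out by its epithelial markers, since 6 of 6, among them the secreted glycoprotein gene Ovgp1 and the ciliary regulator Foxj1, were bright.

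The arrays differed in RNA quality. For Actb, the control probed at both ends of its messenger RNA, the 3' to 5' ratio was 5.90 in wild-type replicate 3 and 1.67 to 2.49 in the other 5 arrays. Wild-type replicate 3 was the lowest of the 6 arrays at 35 of the 103 probe sets of the flanking genes (34.0%), against 21.5% of all probe sets.

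None of the 103 probe sets of the flanking genes passed the test, at a limma p adjusted over all probe sets of under 0.05, a rule that 0.00666% of all probe sets met. The smallest adjusted p among them was 0.525. At an unadjusted p under 0.05 there were 8 probe sets (7.77%), 3 higher and 5 lower in heterozygotes, where all probe sets gave 5.18%. Without wild-type replicate 1 there were 16 such probe sets, with array weights 16, and without heterozygous replicate 1 there were 4. The share of all probe sets is not given for these settings, so these counts cannot be set beside 5.18%. All 3 heterozygous arrays lay on the same side of all 3 wild-type arrays at 16 of the 103 (15.5%), 9 higher and 7 lower. Over all probe sets this held for 10.5%, 4.67% higher and 5.87% lower.

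Most of the flanking genes differed little between the genotypes. The 103 changes ran from -1.57 to 1.83 with a median of 0.08, beside a median of -0.01 for all probe sets, and the median size of a change without regard to sign was 0.22, beside 0.20. Changes were positive at 66 of the 103 probe sets (64.1%) and at 48.3% of all probe sets. At the 53 bright probe sets of the flanking genes the changes ran from -0.53 to 0.87, 38 of them positive, and 3 had an unadjusted limma p under 0.05 (5.66%, against 3.61% of all bright probe sets). The arrays did not overlap at 8 of the 53 (15.1%, against 11.4%). At the 50 dim probe sets they ran from -1.57 to 1.83.

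**Figure D1:**
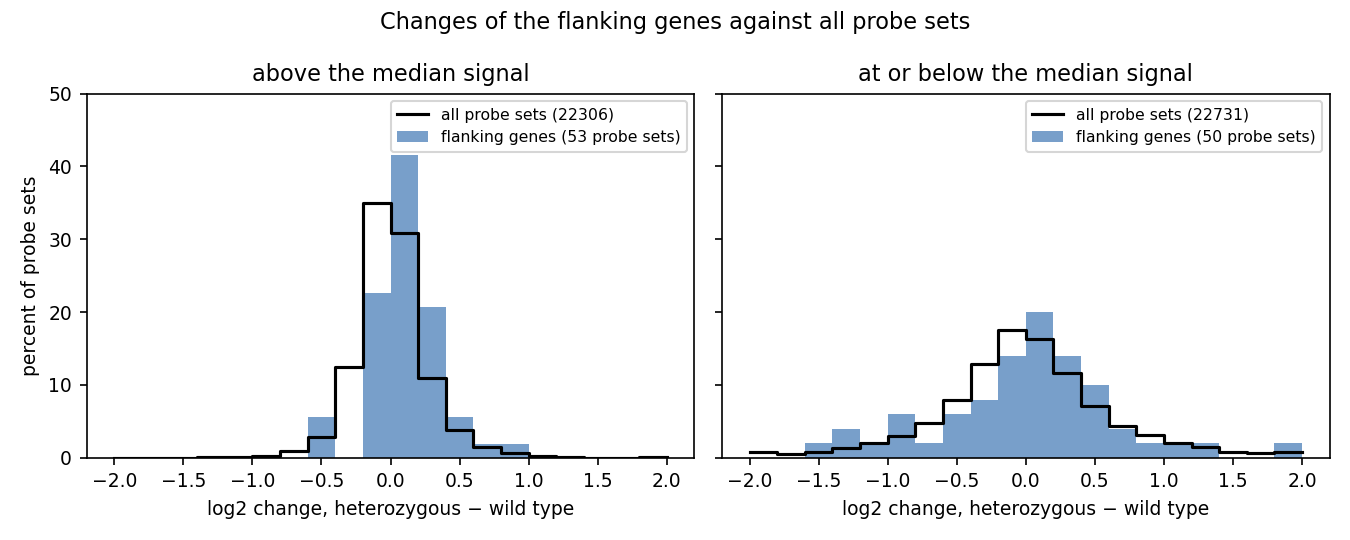
Percent of probe sets (vertical axis) by log2 change, heterozygous minus wild type, in bins of 0.2 (horizontal axis), for the flanking genes (bars) and all probe sets (black line), split into bright (left) and dim (right); values beyond 2 on either side are counted in the outermost bins. Among bright probe sets, the flanking genes hold 22.6% between -0.2 and 0 against 35.0% of all, and 20.8% between 0.2 and 0.4 against 10.9%.

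Taken per gene, by its brightest probe set, 27 of the 43 (62.8%) were higher and 16 lower in heterozygotes, where 45.0% of all genes were higher. The median change was 0.02 against -0.03 over 18193 genes. The genotypes did not overlap for 11 of the 43 genes (25.6%), 6 higher and 5 lower, and for 11.8% of all genes. Without wild-type replicate 3 these shares were 34.9% and 19.7%. Without wild-type replicate 1 they were 41.9% and 32.0%, with 18 genes in place of 11. The unadjusted limma p was under 0.05 for 6 of the 43 genes, 3 higher and 3 lower, and for 5.25% of all genes.

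The median change differed between RNA quality classes, in each of which 1 genotype has a single array. Arrays fall into 3 of lower Actb ratio (wild-type replicate 1 and heterozygous replicates 2 and 3) and 3 of higher ratio (wild-type replicates 2 and 3 and heterozygous replicate 1). Within the lower class the median change of the 103 probe sets was -0.02, and within the higher class it was 0.11. With the classes as a block it was 0.04, beside 0.0013 for all probe sets. Per array, the median deviation of the 103 probe sets from their own means was 0.05, -0.02 and -0.12 in wild-type replicates 1, 2 and 3. It was 0.03, 0.03 and 0.08 in heterozygous replicates 1, 2 and 3. The value of wild-type replicate 1 lay among those of the heterozygotes, so the genotypes overlapped.

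**Figure D2:**
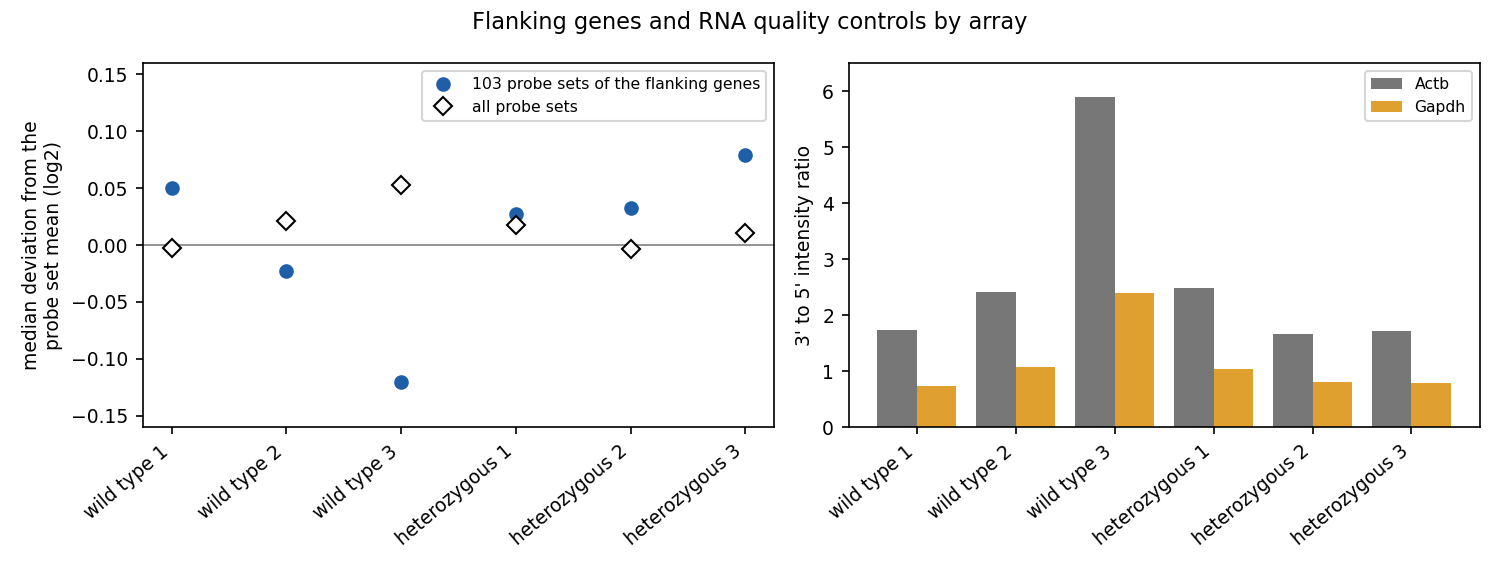
Left: median over probe sets of the log2 deviation from each probe set's mean over the 6 arrays, for the 103 probe sets of the flanking genes (filled circles) and all probe sets (open diamonds), by array. Right: 3' over 5' intensity of the Actb and Gapdh controls, for each array; wild-type replicate 3 has the highest ratios, 5.90 and 2.39, and the lowest median deviation of the flanking genes, -0.12.

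The changes were compared by place in the gene order counted from Wt1. Places are not distances in bases, and differences between the places were not tested. Among the 10 measured genes that are members and hold the nearest 5 places on each side of Wt1 in the list, 9 were higher and 1 was lower. Of all genes, 45.0% were higher. The 10 genes had a median change of 0.05 and a median size of 0.08. Without wild-type replicate 3, Eif3m, Immp1l and Dnajc24 also read lower, at -0.04, -0.12 and -0.21. The 8 genes at places 6 to 10 had a median change of -0.19 and a median size of 0.40. The 25 genes at place 11 or beyond had a median change of 0.02 and a median size of 0.16. Bright by their brightest probe set were 7 of the 10 nearest genes, 4 of these 8 and 20 of these 25. Over all bright probe sets the median size of a change was 0.14, and over all dim ones 0.32. By side, the 29 genes before Wt1 had a median change of 0.02 with 8 not overlapping (27.6%), and the 14 genes after it a median change of 0.02 with 3 not overlapping (21.4%), beside 11.8% of all genes. The bright share differed between the sides, at 24 of 29 genes before and 7 of 14 after.

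**Figure D3:**
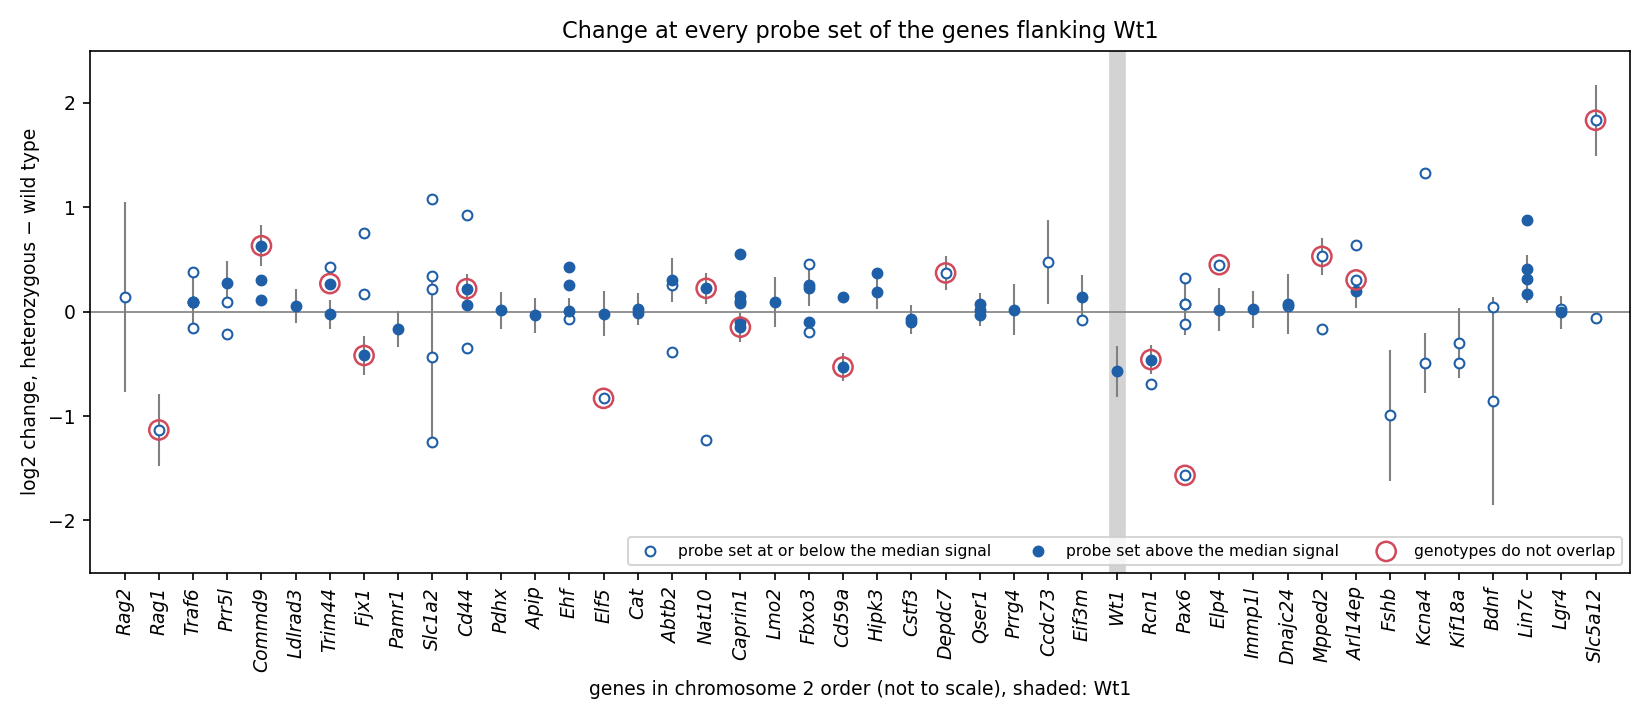
Log2 change, heterozygous minus wild type (vertical axis), at every probe set of the flanking genes and of Wt1, with genes in chromosome order and not to scale (horizontal axis); filled points are bright and open points dim, bars are the SE at the brightest probe set of a gene, and red rings mark probe sets whose genotypes do not overlap. Rings lie on both sides of Wt1 and near both ends of the row, and no gene between Wt1 and Dnajc24 except Rcn1 has a bright ringed point.

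Wt1 itself, measured by 1 bright probe set, had intensities of 4526, 4245 and 3323 in wild type and 2253, 2452 and 3468 in heterozygotes. Heterozygous replicate 3 lay above wild-type replicate 3, the array of highest 3' to 5' ratio, so the genotypes overlapped. Without wild-type replicate 3 the change of Wt1 was -0.72. Wt1 stayed lower in heterozygotes under all 15 alternatives, from -0.77 to -0.43. Within the arrays of lower 3' to 5' ratio it gave -0.64, and within those of higher ratio -0.74. The fit to all 6 arrays lay within the range over the alternatives, but was smaller in size than within either class of arrays. The change was -0.57 (SE 0.24, limma adjusted p = 0.933), and the labels do not say whether the allele removes the sequence that this probe set reads.

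Rcn1, the nearest listed gene after Wt1, encodes reticulocalbin, a calcium-binding protein of the endoplasmic reticulum. Its bright probe set read 4530, 4471 and 5115 in wild type and 3134, 3531 and 3478 in heterozygotes. Every heterozygous array was lower than every wild-type array. The means were 12.18 ± 0.06 (SD, n = 3) and 11.72 ± 0.11 (SD, n = 3), a 1.37-fold difference with a change of -0.46 (SE 0.14). The change of Rcn1 did not pass after adjustment over all probe sets (limma p = 0.0166, adjusted p = 0.861; exact permutation p = 0.1, the smallest that 3 arrays against 3 allow). Over all 16 alternatives the change of Rcn1 ran from -0.60 to -0.38. It was -0.38 within the arrays of lower 3' to 5' ratio and -0.60 within those of higher ratio. Because the genotypes did not overlap, leaving out, weighting or splitting the arrays could not turn its sign. The kept direction is therefore no added support. The dim probe set of Rcn1 also read lower in heterozygotes (change -0.69, SE 0.32), with 61, 117 and 144 against 61, 64 and 70, where the genotypes overlapped.

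Mesothelium, the serosal lining in which Wt1 is commonly expressed, was followed by 4 markers, all bright, with 3 higher and 1 lower in heterozygotes. Their summed intensity was 2133 to 3768 in wild type and 2908 to 3437 in heterozygotes, so the ranges overlapped. Taken singly, Lrrn4 did not overlap, and the other markers did, where 11.8% of all genes did not overlap. Lrrn4 read 201, 140 and 122 in wild type and 223, 283 and 318 in heterozygotes (change 0.84, SE 0.24, limma adjusted p = 0.853).

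Eif3m, the nearest listed gene before Wt1, encodes a subunit of a translation initiation factor. Its bright probe set read 2943, 2499 and 1833 in wild type and 2496, 2598 and 2746 in heterozygotes. The genotypes overlapped, and only wild-type replicate 3 stood low. The change was 0.14 (SE 0.21), with a 95% interval from -0.38 to 0.66, so a difference of the size seen for Rcn1 in the opposite direction is within the error. Without wild-type replicate 3 the change of Eif3m was -0.04. Ccdc73, next on that side, was dim at 15 to 42 over the arrays, with a change of 0.48 (95% interval -0.52 to 1.48). Without wild-type replicate 3 the change of Ccdc73 was 0.17, without heterozygous replicate 1 it was 0.21, and without wild-type replicate 1 it was 0.82.

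Wt1os, an RNA transcribed from the Wt1 locus in the antisense direction, is not on the list of flanking genes. It was singled out after its values were seen. Its probe set, dim with a mean of 7.14, read 315, 173 and 204 in wild type and 89.6, 88.1 and 91.5 in heterozygotes. All heterozygous arrays were lower, by 2.54-fold (change -1.34, SE 0.24, limma adjusted p = 0.538; exact permutation p = 0.1). Its change ranged from -1.85 to -1.03 over the alternatives, but leaving out, weighting or splitting separated arrays could not turn the sign. Wt1os belongs to the 12 other measured genes that the RefSeq table places between the outermost listed genes. Of these 12, 0 passed the test in either direction (limma, 1 at an unadjusted p under 0.05), 8 were higher and 4 lower, and Wt1os was the 1 gene without overlap (8.33%, against 11.8% of all genes). The rest of chromosome 2, with 1343 genes, had a median change of -0.04, with 14.6% not overlapping.

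**Figure D4:**
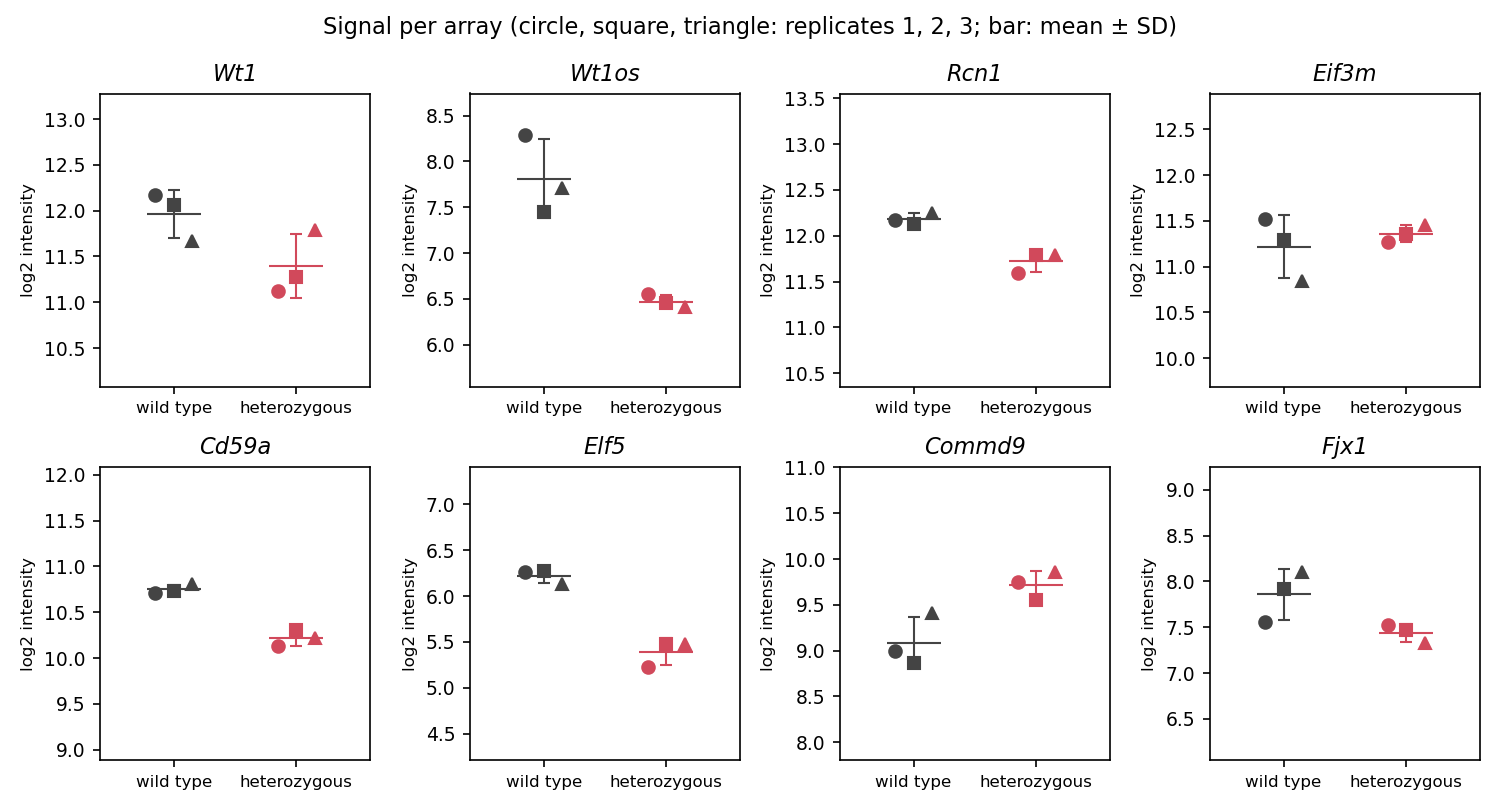
Normalized log2 intensity (vertical axes, each spanning 3.2 units) per array for Wt1, Wt1os and 6 flanking genes, with the brightest probe set shown except for Elf5, where the dim one is shown; circles, squares and triangles are replicates 1, 2 and 3, and horizontal lines with bars are the mean ± SD of 3 arrays. The probe set of Wt1os is also dim. The genotypes are separated for Wt1os, Rcn1, Cd59a, Elf5, Commd9 and Fjx1 and overlap for Wt1 and Eif3m.

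Among the transcription regulators and recombination genes, 5 of 7 were higher and 2 lower by their brightest probe sets, 0 passed, and the median change was 0.02. Pax6, the eye and pancreas regulator that is the second listed gene after Wt1, had 5 probe sets, all dim. Their changes ran from -1.57 to 0.33, 3 positive and 2 negative. The lowest belonged to a probe set with intensities of 2.64, 11.4 and 6.87 in wild type and 2.32, 1.44 and 2.55 in heterozygotes. The genotypes did not overlap there, but all values were weak, and with log2 of the intensity plus 16 the change was -0.33 (limma adjusted p = 0.903 as first fitted). The brightest Pax6 probe set had a change of 0.08 (95% interval -0.65 to 0.80).

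Elf5 and Ehf, neighbouring genes for ETS factors of epithelial cells, were both measured by a bright probe set with almost no difference. Ehf read 5338, 5588 and 5565 in wild type and 5610, 5323 and 5348 in heterozygotes. The change was 0.004 with a 95% interval from -0.31 to 0.31, and the other 3 Ehf probe sets gave -0.07 to 0.42. The bright Elf5 probe set gave -0.02 (SE 0.22), with 474 to 632 in wild type and 426 to 660 in heterozygotes. The dim Elf5 probe set had the smallest p of all flanking probe sets. It read 73.3, 77.9 and 70.5 in wild type and 35.8, 44.9 and 47.9 in heterozygotes, every heterozygous array being lower. The change was -0.83 (SE 0.15, limma adjusted p = 0.525), and -0.64 with log2 of the intensity plus 16. The 2 Elf5 probe sets thus disagreed in size.

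Lmo2, an adaptor of blood and endothelial transcription complexes, had a change of 0.09 (SE 0.24), and the 3 probe sets of Qser1, a chromatin protein that guards developmental genes against DNA methylation, gave -0.03 to 0.07. Rag1 and Rag2 encode the recombinase of developing lymphocytes. Rag1 read 4.42, 8.29 and 6.03 in wild type and 2.81, 1.88 and 4.17 in heterozygotes, lower in each heterozygous array but at the weak end of the scale (change -1.13, SE 0.34, limma adjusted p = 0.863). Adding 16 to each intensity before the log brought it to -0.23. Rag2, also weak, overlapped at 0.14 (SE 0.91). None of the 5 measured lymphocyte markers was bright, and their summed intensity was 353 to 518 in wild type and 391 to 494 in heterozygotes.

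Genes of RNA metabolism and translation were all bright by their brightest probe sets. None of the 6 passed, and their changes ran from -0.15 to 0.22, 4 higher and 2 lower. Caprin1, an RNA-binding protein of stress granules, was measured by 6 bright probe sets with changes from -0.15 to 0.55. Its brightest read 4805, 5019 and 6272 in wild type and 4699, 4698 and 4691 in heterozygotes. The arrays did not overlap, yet 4 of its 6 probe sets were higher in heterozygotes, so the sign depends on the probe set. Cstf3, a subunit of the cleavage factor that acts at messenger RNA 3' ends, gave -0.07 and -0.10, and Nat10, an RNA acetyltransferase, 0.22 at its bright probe set without overlap (SE 0.15) and -1.23 at its dim one. Elp4, a subunit of the Elongator complex that modifies transfer RNA, gave 0.02 at its bright probe set. Its dim probe set gave 0.45 (SE 0.20), with 52.7, 50.1 and 47.3 in wild type and 83.2, 57.0 and 73.0 in heterozygotes, and no overlap. Dnajc24, a cochaperone of diphthamide synthesis, gave 0.05 and 0.08.

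Among the metabolic and mitochondrial genes, Cat, the peroxide-degrading catalase, gave 0.02 and -0.02 at its bright probe sets. Mpped2, a metallophosphoesterase, was higher in all heterozygous arrays at 1 of its 2 probe sets, both dim, with 129, 119 and 137 in wild type and 176, 164 and 232 in heterozygotes. The change was 0.53 (SE 0.18, limma adjusted p = 0.915), but the other Mpped2 probe set gave -0.17.

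Apip, an enzyme of methionine salvage, and Pdhx, a component of the pyruvate dehydrogenase complex, start on opposite strands so near each other that their promoter windows share 261 of 300 bases. Immp1l, a mitochondrial inner membrane peptidase subunit, and Elp4 are arranged likewise and share 173 bases. The windows, which run from 250 bases before to 50 bases after the start site in RefSeq (GRCm38.p6), are shown for 1 gene of each pair, with the part shared by the partner gene in capitals, because both genes of a pair then lie under the same stretch of flanking DNA. That of Apip lies at chr2:103073425-103073724 on the plus strand, and that of Immp1l at chr2:105904388-105904687 on the plus strand.
Apip: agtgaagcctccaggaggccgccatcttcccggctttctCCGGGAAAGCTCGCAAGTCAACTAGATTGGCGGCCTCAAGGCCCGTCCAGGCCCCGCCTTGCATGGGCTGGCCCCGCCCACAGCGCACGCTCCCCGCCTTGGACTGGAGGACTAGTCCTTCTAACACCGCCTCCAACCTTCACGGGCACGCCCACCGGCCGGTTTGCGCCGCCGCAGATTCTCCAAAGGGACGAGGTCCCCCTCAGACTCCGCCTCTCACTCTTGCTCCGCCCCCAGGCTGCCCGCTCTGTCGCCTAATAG
Immp1l: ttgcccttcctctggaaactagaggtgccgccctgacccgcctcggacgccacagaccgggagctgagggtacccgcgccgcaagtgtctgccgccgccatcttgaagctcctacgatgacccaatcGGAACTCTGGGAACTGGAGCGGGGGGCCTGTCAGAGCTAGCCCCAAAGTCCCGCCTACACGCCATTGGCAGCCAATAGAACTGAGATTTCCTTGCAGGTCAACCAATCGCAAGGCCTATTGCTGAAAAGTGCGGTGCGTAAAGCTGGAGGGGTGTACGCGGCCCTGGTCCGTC

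Neither pair differed detectably between the genotypes. The change was -0.03 for Apip (95% interval -0.44 to 0.38) and 0.01 for Pdhx (-0.42 to 0.45). It was 0.02 for Elp4 at its bright probe set (-0.49 to 0.52) and 0.02 for Immp1l (-0.42 to 0.46). Apip read 690 to 937 in wild type and 774 to 885 in heterozygotes, and Pdhx 175 to 254 and 206 to 225. At their widest, these intervals leave room for a difference of 0.52 on the log2 scale.

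Genes of ubiquitin transfer and intracellular signalling were higher in 7 of 8 cases by their brightest probe sets, beside 45.0% of all genes. Their median change was 0.21, and 0 passed. Commd9, a member of the COMMD family that acts in endosomal sorting, read 515, 469 and 662 in wild type and 857, 757 and 928 in heterozygotes at its brightest probe set. The genotypes did not overlap (1.55-fold, change 0.63, SE 0.20, limma adjusted p = 0.878). That probe set may cross-hybridize by its name suffix, and the other 2 of Commd9, both bright, gave 0.11 and 0.30 with overlap. Hipk3, a nuclear kinase, read 5314 to 6409 in wild type and 6356 to 6933 in heterozygotes (change 0.19, SE 0.17). Without wild-type replicate 3 the change of Hipk3 was 0.09, and without wild-type replicate 1 it was 0.29. Fbxo3, an F-box protein of a ubiquitin ligase, had 5 probe sets from -0.20 to 0.46, the brightest at 0.23 and at 0.09 without wild-type replicate 3. Traf6, a ubiquitin ligase of Toll-like receptor signalling, had 5 from -0.16 to 0.38. Trim44, a deubiquitinating TRIM protein, gave -0.03 at its brightest probe set, and 0.27 at another without overlap (160, 164 and 172 against 170, 228 and 218 before normalization). Abtb2 had 3 probe sets from -0.38 to 0.30, Prr5l, a partner of the mTORC2 kinase complex, 3 from -0.22 to 0.27, and Arl14ep 3 from 0.19 to 0.64, all higher.

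Of the 9 measured genes for surface proteins and transporters, 5 were higher and 4 lower, and 0 passed. Cd59a encodes a membrane-anchored inhibitor of the complement attack complex, and lies 9 places before Wt1 in the list. Its brightest probe set read 1694, 1701 and 1785 in wild type and 1132, 1261 and 1192 in heterozygotes. Every heterozygous array lay well below the wild-type arrays. The means were 10.75 ± 0.05 (SD, n = 3) and 10.22 ± 0.09 (SD, n = 3), a change of -0.53 (SE 0.13, 1.44-fold, limma adjusted p = 0.768; exact permutation p = 0.1). Over 16 alternatives the change ran from -0.64 to -0.45. As the genotypes did not overlap, leaving out, weighting or splitting the arrays could not turn its sign. The second Cd59a probe set, also bright, did not read lower in heterozygotes (change 0.14, SE 0.23). It read 923, 618 and 522 in wild type and 706, 814 and 710 in heterozygotes. A paralog, Cd59b, lies beside Cd59a, and whether the probe sets read both was not tested. The Cd59a promoter window is shown as that of the bright flanking gene of smallest p, with the bases from the start site onward in capitals, at chr2:104095551-104095850 on the plus strand of GRCm38.p6.
Cd59a: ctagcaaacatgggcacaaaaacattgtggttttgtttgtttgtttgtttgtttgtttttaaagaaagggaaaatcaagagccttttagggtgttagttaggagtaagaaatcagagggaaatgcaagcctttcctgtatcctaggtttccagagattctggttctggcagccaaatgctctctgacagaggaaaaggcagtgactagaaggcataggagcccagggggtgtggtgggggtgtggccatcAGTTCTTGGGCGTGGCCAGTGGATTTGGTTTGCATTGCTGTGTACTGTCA

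Cd44, the hyaluronan receptor, read 2842, 2951 and 2527 in wild type and 3278, 3253 and 3111 in heterozygotes at its brightest probe set. The groups did not overlap, but the change was small (0.22, SE 0.14), and 0.06 at the next brightest. Lgr4, the R-spondin receptor of Wnt signalling, overlapped at 4433, 4528 and 3774 against 4406, 3879 and 4160 (change -0.01, 95% interval -0.39 to 0.37). Lin7c, a scaffold protein of cell junctions, was higher at all 4 probe sets, by 0.17 to 0.87, with overlap at each. Its brightest read 2480, 1954 and 1419 in wild-type replicates 1, 2 and 3, the lowest in the array of highest 3' to 5' ratio, and 2168, 2456 and 2486 in heterozygotes. Without wild-type replicate 3 its change there was 0.11 in place of 0.32. Ldlrad3 gave 0.05 and Prrg4 0.02. Slc1a2, a glutamate transporter, was dim at all 5 probe sets, with changes from -1.25 to 1.07, and Kcna4, a potassium channel, gave -0.49 and 1.33 at 2 dim ones.

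Slc5a12, a lactate transporter of the kidney and the last gene of the list, had the largest positive change, 1.83 (SE 0.34, limma adjusted p = 0.574). It rests on intensities of 2.27, 3.42 and 3.74 in wild type and 10.9, 17.0 and 7.38 in heterozygotes. The arrays were separated, but with log2 of the intensity plus 16 the change was 0.52, and the other Slc5a12 probe set gave -0.06.

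Genes for secreted, Golgi and endoplasmic reticulum proteins were the 1 role group with all members lower by their brightest probe sets, 5 of 5, with changes from -0.99 to -0.16 and a median of -0.46. Over all 9 of their probe sets, 6 were lower and 3 higher. None passed, and 2 of 5 genes, Rcn1 and Fjx1, did not overlap, beside 11.8% of all genes. Without heterozygous replicate 3, and within the arrays of lower 3' to 5' ratio, 4 of 5 were lower. Fjx1, a secreted Golgi protein related to the fly kinase Four-jointed, read 188, 240 and 266 in wild type and 177, 180 and 170 in heterozygotes (change -0.42, SE 0.19, limma adjusted p = 0.933). Its other 2 probe sets were dim and gave 0.17 and 0.75. Pamr1, a secreted protein of muscle repair, gave -0.16 (SE 0.17).

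Bdnf, a neurotrophin, and Fshb, the hormone-specific chain of follicle-stimulating hormone, were dim. Bdnf read 78.6, 165 and 132 in wild type and 141, 157 and 14.3 in heterozygotes, so its change of -0.86 (SE 1.00) came from heterozygous replicate 3 and was 0.30 without it. Fshb read 5.18, 12.8 and 32.2 against 7.97, 4.99 and 6.91, with overlap (change -0.99, SE 0.63). Without wild-type replicate 3 the change of Fshb was -0.36, and without wild-type replicate 1 it was -1.60. All 3 pituitary gonadotrope markers and all 4 neuronal markers read lower in heterozygotes, and 0 passed. Only 1 of the gonadotrope and 1 of the neuronal markers were bright, so the others may lie at background. All 3 measured markers of ovarian granulosa cells, 1 of them bright, also read lower. The summed intensity was 437 to 608 in wild type and 375 to 440 in heterozygotes for the gonadotrope markers. It was 571 to 779 and 539 to 611 for the neuronal markers. The part of these cell types in the values of Bdnf and Fshb was not tested.

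In the last group, Depdc7 was higher in all heterozygous arrays at a dim level, with 121, 107 and 99.4 against 131, 164 and 139 (change 0.37, SE 0.16, limma adjusted p = 0.933). Kif18a, a kinesin of mitotic chromosome alignment, gave -0.30 and -0.50 at dim probe sets with overlap.

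Repeated measurement of the same gene showed how far single probe sets can be read. Of 43 genes, 31 had several probe sets, and in 21 of these 31 the probe sets gave changes of both signs. The other 10, among them Rcn1, Elf5, Commd9, Hipk3, Arl14ep and Lin7c, gave 1 sign throughout. Of the 16 probe sets without overlap, those of Pax6, Slc5a12, Cd59a, Mpped2, Fjx1, Trim44, Nat10, Caprin1 and Cd44 had at least 1 probe set of the same gene with the opposite sign.

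Smooth muscle, endothelial, leukocyte and fat markers read higher in heterozygotes, beside the higher values of Cd44 and of the signalling genes. All 4 smooth muscle markers were higher, with summed intensities of 18759 to 24576 in wild type and 21602 to 29840 in heterozygotes. All 3 endothelial markers were higher, at 1016 to 1102 and 1236 to 1532, and both measured fat markers, at 113 to 162 and 306 to 603. Only 1 of these fat markers was bright. All 4 leukocyte markers were higher, at 5795 to 7569 and 6270 to 8218, with ranges that overlapped. No marker passed the test, and their part in the flanking genes' values was not tested.

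The promoter windows of the flanking genes were also searched for letters that resemble WT1 recognition sequences, on both strands. There were 52 windows for 38 of the 45 genes, with a median GC content of 57.2%, against 52.7% over 32851 windows of the same length. The letters GCGGGGGCG, which the related EGR factors also recognise, were found in 3 of 52 windows (5.77%), against 2.91% of all windows. GCGTGGGAG was found in 0 of 52 windows, against 0.472% of all. The 3 windows are shown with the match in capitals, as the flanking genes that carry the letters of the factor whose gene is disrupted: Ldlrad3 at chr2:102186411-102186710 on the minus strand, Qser1 at chr2:104816647-104816946 on the minus strand and Kcna4 at chr2:107290339-107290638 on the plus strand of GRCm38.p6. In Qser1 and Kcna4 the match is on the strand opposite to the gene.
Ldlrad3: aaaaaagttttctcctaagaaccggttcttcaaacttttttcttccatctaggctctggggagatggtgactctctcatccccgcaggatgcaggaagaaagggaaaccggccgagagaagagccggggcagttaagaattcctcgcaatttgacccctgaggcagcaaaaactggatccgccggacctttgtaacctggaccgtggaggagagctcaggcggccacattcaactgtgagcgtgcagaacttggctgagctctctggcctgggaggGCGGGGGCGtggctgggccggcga
Qser1: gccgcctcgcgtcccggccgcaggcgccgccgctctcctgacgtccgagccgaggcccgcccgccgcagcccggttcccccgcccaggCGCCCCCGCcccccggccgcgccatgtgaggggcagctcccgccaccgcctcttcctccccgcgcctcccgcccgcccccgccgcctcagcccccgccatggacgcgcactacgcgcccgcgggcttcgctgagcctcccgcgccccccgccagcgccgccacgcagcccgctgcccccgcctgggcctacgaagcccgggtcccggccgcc
Kcna4: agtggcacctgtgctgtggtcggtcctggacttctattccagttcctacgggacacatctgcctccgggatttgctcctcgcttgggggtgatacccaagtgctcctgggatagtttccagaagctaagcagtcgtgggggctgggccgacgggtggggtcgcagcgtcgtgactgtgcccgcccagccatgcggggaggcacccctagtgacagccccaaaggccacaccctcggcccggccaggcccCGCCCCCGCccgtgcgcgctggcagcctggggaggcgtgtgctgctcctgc

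The changes of these 3 genes by their brightest probe sets were 0.05, 0.02 and -0.49, each with overlap. Of 21 measured genes with a CpG-rich window, defined as over 50% GC and an observed to expected CpG ratio over 0.6, 16 were bright and the changes ran from -0.30 to 0.53. Of 15 measured genes without one, 9 were bright and the changes ran from -1.13 to 0.63. The genotypes did not overlap in 4 of the 21 and 4 of the 15 genes, where 11.8% of all genes did not overlap.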

How the data were processed

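For each array the authors deposited intensities on a linear scale, 1 for every one of 45101 probe sets. Per the labels, biotin-labelled cRNA was hybridized. No source used here names the summary program. From the values, the mean after removing 2% at each end was 500.002 in each array. After removal of 64 control probe sets, intensities under 1 were set to 1, log2 transformed and quantile normalized, because array medians differed by 0.147. Differences were fitted over 45037 probe sets with limma 3.58.1 (lmFit and eBayes, two-sided, Benjamini-Hochberg) in R 4.3.3, with a threshold of 0.05. Intervals are 95% from limma. Single values also had an exact permutation test, with 20 assignments and a smallest p of 0.1. A gene stands by its probe set of highest mean. Gene order came from RefSeq (GRCm38.p6). The array's build is not named, so no gene coordinates are given.

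Members and lists were chosen with earlier results of these data known. Values are given for Wt1, the nearest 2 genes on each side, up to 12 non-overlapping probe sets of smallest p, the 5 genes of highest signal, genes with 3 or more probe sets, Cd59a and divergent neighbours, and the rest by role. In simulated data from the means and spreads of the 45037 probe sets, 10% of 100 probe sets shifted by 1 on the log2 scale and 80% of 100 shifted by 2 were recovered, with 5 false calls. The number of arrays limits the precision. All shifted probe sets were bright, so recovery was not measured for dim ones such as those among the flanking genes. Alternatives tried were trend and robust variances, removal of dim probe sets, the scaling as deposited, array weights, log2 of the intensity plus 16, blocks, probe set rules and leaving out each array.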

Additional observations from a re-analysis of the deposited data

How the results depend on the processing

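No flanking probe set passed the threshold under any alternative run, which included leaving out each array. At an unadjusted limma p under 0.05 there were 8 to start from, and 4 with the filter on dim probe sets, which left 53. There were 16 with array weights, and 4 to 16 when 1 array was left out. For this p the share of all probe sets is not given under the alternatives, so these counts have no background beside them. Probe sets without overlap numbered 16, then 8 with that filter and 19 to 39 without 1 array, where fewer arrays make separation easier (16.8% to 30.6% of all probe sets). Genes without overlap, counted after the data were seen, numbered 11 (25.6%, against 11.8% of all genes). With that filter there were 7 (22.6%, against 12.5%). Without 1 array there were 12 to 18 (27.9% to 41.9%, against 17.6% to 32.0%). The median change of the probe sets was -0.0205 within the arrays of lower 3' to 5' ratio, and 0.04 to 0.08 without 1 array. That of the genes was 0.0726 with array weights, -0.0654 in the arrays of lower ratio, 0.109 in those of higher ratio, and -0.0006 to 0.0746 without 1 array.

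Of 23 named probe sets, 14 kept their direction under the alternatives run and 9, most with changes near 0, turned in at least 1. Many were named because their genotypes did not overlap. Such probe sets could not turn when arrays were left out, weighted or split, so these counts do not measure stability. Within the arrays of lower ratio the change was -0.48 for Ccdc73, -0.12 for Eif3m, -0.0067 for Ehf, -0.28 for Pdhx and -0.20 for Immp1l. Within those of higher ratio it was -0.13 for Pax6 and 0.11 for Lgr4. With array weights it was -0.0924 for Pax6, -0.03 for Ehf and -0.0157 for Immp1l. With the classes of ratio as a block it was -0.0506 for Pdhx and -0.0471 for Immp1l, and with the deposited scaling -0.0186 for Ehf. Without 1 array the changes ran from -0.0437 to 0.30 for Eif3m, -0.18 to 0.31 for Pax6, -0.0212 to 0.0262 for Ehf, -0.11 to 0.0463 for Lgr4, -0.15 to 0.0502 for Apip, -0.093 to 0.16 for Pdhx, -0.098 to 0.16 for Elp4 and -0.12 to 0.14 for Immp1l. The cause was not tested.

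With the replicate number as a block, 0 flanking probe sets passed and 7 had an unadjusted p under 0.05. The deviations of same-numbered arrays correlated at -0.16, -0.02 and -0.09, so the numbers do not pair the samples. Without detection calls, the dim probe sets of Pax6, Rag1 and Slc5a12 may be background.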
